A study of Homo sapiens with 12 samples.

Results

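The 10 genes described here encode the D-type cyclins (CCND1, CCND2 and CCND3), their kinase partners CDK4 and CDK6, inhibitors of these kinases (CDKN1B, CDKN1C, CDKN2A and CDKN2B) and RB1, the protein that cyclin D kinases phosphorylate. They were taken by symbol from both deposited tables and are 10 of 38434 named genes. The list was chosen by values of these data, the differences in read counts between maspin and ctrl libraries of each line. RNA was sequenced from LK-2 and RERF-LC-AI, established lines labelled as lung squamous cell carcinoma, with 3 libraries in each of 4 groups. LK2-ctrl and LC-AI-ctrl cells stably carried a lentiviral vector for the fluorescent protein ZsGreen. LK2-maspin and LC-AI-maspin cells carried the same kind of vector with maspin, the serpin encoded by SERPINB5, joined to ZsGreen through a P2A peptide. All 4 groups had therefore been transduced and selected with blasticidin, the ctrl cells included, and each of the 4 was a pool of surviving clones. The maspin cells expressed maspin from the vector. Reads of the vector were not told apart from reads of the cells' own SERPINB5 locus. LK-2 cells were kept in RPMI1640 and RERF-LC-AI cells in Eagle's minimum essential medium. Since each group was a pool of its own, a difference between maspin and ctrl cells cannot be told apart from a difference between pools. The sources do not say whether the 3 libraries of a group came from separate cultures of its pool. The p-values therefore measure only the spread between these libraries, which may be technical. The question of the study's comparison was what maspin expression changes in each line.

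D-type cyclins are made in response to growth signals and bind CDK4 or CDK6 in the G1 phase of the cell cycle. The kinase then phosphorylates RB1, which releases E2F transcription factors and allows genes for DNA replication to be expressed. INK4 proteins such as p16 (CDKN2A) and p15 (CDKN2B) bind CDK4 and CDK6 themselves, whereas CIP/KIP proteins such as p27 (CDKN1B) and p57 (CDKN1C) bind cyclin and kinase together. Loss of CDKN2A and gain of CCND1 are frequent in squamous carcinomas of the lung, and cells without working RB1 commonly express much p16.

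Of the 10 genes, 7 had an entry in the RefSeq promoter table (GRCh38.p14). The starts of CDKN2A and CDKN2B are shown because they lie next to each other on chromosome 9 and yet differed in opposite directions between the lines. That of CDK4 is shown beside them as a gene that differed less than these (log2 difference -0.33 between the ctrl cells). CCND3 and CDKN1B, which also had entries, differed still less, by 0.15 and -0.00153, and are not shown. Each sequence is the 250 bases before a start, 5′ to 3′ on the gene's strand (the minus strand in all 4). Capitals mark GGGCGG (the GC box) or CACGTG (the E box), searched on both strands, so that CCGCCC is a GC box on the other strand. The count row of CDKN2A covers both of its starts. The upstream one gives the transcript of p14ARF and the downstream one that of p16.
CDKN2A, upstream start, chr9:21995325-21995574: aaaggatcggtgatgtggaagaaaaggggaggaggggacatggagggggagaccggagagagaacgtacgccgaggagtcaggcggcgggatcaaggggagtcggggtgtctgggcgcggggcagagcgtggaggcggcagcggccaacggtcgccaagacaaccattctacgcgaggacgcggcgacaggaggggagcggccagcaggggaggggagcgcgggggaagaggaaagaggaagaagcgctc
CDKN2A, downstream start, chr9:21974858-21975107: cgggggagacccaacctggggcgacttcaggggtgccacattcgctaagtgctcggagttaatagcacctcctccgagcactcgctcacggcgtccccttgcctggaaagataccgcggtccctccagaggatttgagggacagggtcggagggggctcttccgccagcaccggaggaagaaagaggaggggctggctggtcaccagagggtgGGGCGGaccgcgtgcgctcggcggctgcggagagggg
CDKN2B, chr9:22009306-22009555: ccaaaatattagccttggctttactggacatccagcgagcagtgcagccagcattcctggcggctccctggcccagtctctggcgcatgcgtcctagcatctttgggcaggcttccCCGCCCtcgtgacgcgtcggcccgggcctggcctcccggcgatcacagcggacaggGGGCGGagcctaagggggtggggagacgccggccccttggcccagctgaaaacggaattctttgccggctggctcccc
CDK4, chr12:57752311-57752560: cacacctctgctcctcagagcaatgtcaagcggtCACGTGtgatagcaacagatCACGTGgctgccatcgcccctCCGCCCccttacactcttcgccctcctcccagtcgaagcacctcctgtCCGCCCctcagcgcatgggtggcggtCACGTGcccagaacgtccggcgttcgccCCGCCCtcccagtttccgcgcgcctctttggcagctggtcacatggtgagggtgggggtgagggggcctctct
The CDK4 window held 3 E boxes and 3 GC boxes, the CDKN2B window held 2 GC boxes, and the downstream CDKN2A window held 1. The upstream CDKN2A window held none of these letters. Among all 35116 promoter windows of this length, 42.6% held a GC box and 6.3% an E box. The E2F motifs TTTCGCGC and TTTGGCGC were not in any of the 4 windows, and 0.4% and 0.5% of all windows held them. A match is a description of the letters and not of a site in use.

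Levels are given as CPM, read counts scaled to the size of the library (with TMM factors over all 12 libraries). Between genes, levels are compared only as RPKM, that is CPM per 1000 bases of the MANE Select transcript. LK-2 libraries held 39802246 to 54941357 reads on named genes, RERF-LC-AI libraries held 50143577 to 65454432, and most counts were of both reads of a pair. SERPINB5 followed the labels. It rose from 1.83 ± 0.112 to 46.4 ± 1.46 CPM in LK-2 cells (SD, n = 3 libraries in each group) and from 0.220 ± 0.0688 to 512 ± 40.3 CPM in RERF-LC-AI cells. Markers were checked for the labelled squamous type. The basal squamous markers TP63 and KRT5 stood at only 0.239 and 0.325 RPKM in LK2-ctrl and at 0.130 and 0.0190 RPKM in LC-AI-ctrl cells. The summed CPM of all 10 squamous markers was 540 to 602 in LK2-ctrl libraries, mostly from SOX2 (mean 499.8), and 25.5 to 28.5 in LC-AI-ctrl libraries, mostly from S100A2 and PKP1 (means 13.2 and 8.98). The 8 mesenchymal markers summed to 18.4 to 26.4 CPM in LK2-ctrl libraries, mostly from COL1A1 (mean 15.5), and to 1770 to 1940 CPM in LC-AI-ctrl libraries, mostly from VIM (mean 1786). LK-2 libraries with replicate number 3 stood apart for the members. CCND1, CCND3, CDK4 and CDK6 were lowest of all 6 LK-2 libraries in LK2-ctrl replicate 3 and next lowest in LK2-maspin replicate 3, and values that turn or move clearly without one of them are given both ways.

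The ctrl cells of the lines had different sets of these genes. LK2-ctrl cells had much CDKN2A, little RB1 and almost no CCND2, and LC-AI-ctrl cells had much RB1, less CDKN2A and a low level of CCND2. CDK6 and CDKN1C were also higher in LK2-ctrl, and CDKN2B was higher in LC-AI-ctrl cells. Of the 10 genes, 3 were higher and 5 lower in LK2-ctrl than in LC-AI-ctrl cells, and 2 (CCND3 and CDKN1B) did not pass the threshold (edgeR's quasi-likelihood test, Benjamini-Hochberg adjusted p under 0.05). Over all genes tested, 31.4% were higher and 30.5% lower in LK2-ctrl cells, so that most genes of any kind differed between the lines. Line, medium, deposited table and any sequencing run cannot be told apart in this comparison.

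**Figure D1:**
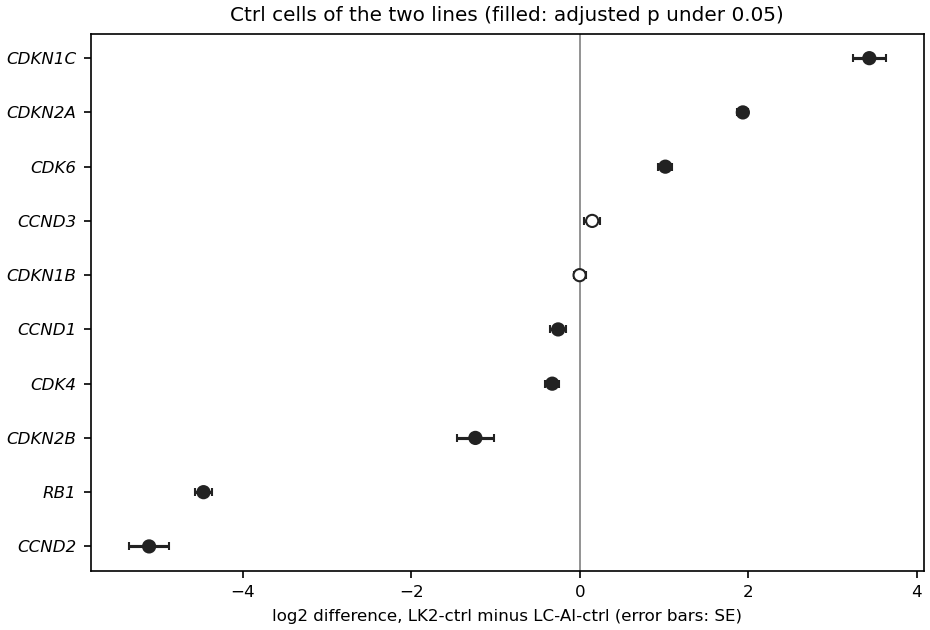
Log2 difference between the ctrl cells of the lines for each of the 10 genes (x axis; points to the right are higher in LK2-ctrl), with SE bars from the fit of all 12 libraries; filled points passed an adjusted p of 0.05. RB1 and CCND2 lie farthest to the left, at -4.47 and -5.11, and CDKN1C farthest to the right, at 3.44.

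RB1 (chromosome 13, 48303744 to 48599436) is the substrate through which cyclin D kinases act on E2F. It stood at 5.10, 4.35 and 6.03 CPM in the LK2-ctrl libraries and at 112, 120 and 109 CPM in the LC-AI-ctrl libraries. The groups lay far apart, 22.1-fold lower in LK2-ctrl cells (log2 difference -4.47, SE 0.10, edgeR adjusted p = 9.23e-19). CDKN2A (chromosome 9, 21967752 to 21995301), which gives p16 and p14ARF, went the other way. Its libraries held 314, 327 and 294 CPM in LK2-ctrl and 84.8, 76.1 and 83.5 CPM in LC-AI-ctrl cells (log2 difference 1.94, SE 0.06, edgeR adjusted p = 5.08e-16). In RPKM, CDKN2A was 302 times RB1 in LK2-ctrl and 3.50 times RB1 in LC-AI-ctrl cells. LPAR6, a receptor gene on the opposite strand inside an RB1 intron, had a log2 difference of 3.84 in favour of LK2-ctrl cells (adjusted p = 2.69e-16), opposite to RB1. The libraries were strand-specific, but no source used here says whether strand entered the counting, and reads of overlapping genes cannot be told apart.

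CDKN2B (chromosome 9, 22002903 to 22009305), next to CDKN2A, had 6.50, 7.30 and 13.3 CPM in LK2-ctrl and 23.3, 17.5 and 23.1 CPM in LC-AI-ctrl libraries. The groups did not overlap and CDKN2B was lower in LK2-ctrl cells (log2 difference -1.24, SE 0.22, edgeR adjusted p = 4.58e-05), opposite to its neighbour. Other genes beside or overlapping them on chromosome 9 were higher in LK2-ctrl cells, as CDKN2A was. MTAP differed by 0.70, DMRTA1 by 1.87, CDKN2B-AS1 by 0.67 and CDKN2A-DT by 1.92 on the log2 scale, all past the threshold. CDKN2B-AS1 runs on the opposite strand across CDKN2B and part of CDKN2A. Without a stated strand setting its reads cannot be told apart from theirs. CDKN1C (chromosome 11, 2883213 to 2885775), the imprinted gene of p57, held 19.8, 23.4 and 28.7 CPM in LK2-ctrl and 2.75, 1.96 and 1.92 CPM in LC-AI-ctrl libraries (log2 difference 3.44, SE 0.20, edgeR adjusted p = 3.47e-12). CDKN1B, at 43.7 to 45.5 CPM in LK2-ctrl and 42.3 to 45.7 CPM in LC-AI-ctrl libraries, overlapped between the lines (log2 difference -0.00153, SE 0.07, edgeR adjusted p = 0.987).

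Among the cyclins, CCND2 (chromosome 12, 4269771 to 4305353) differed most between the ctrl cells. Only 14, 22 and 22 reads were counted in the LK2-ctrl libraries, which is 0.277, 0.382 and 0.445 CPM, against 14.37, 13.03 and 11.04 CPM in LC-AI-ctrl libraries (34.6-fold lower in LK2-ctrl, log2 difference -5.11, SE 0.24, edgeR adjusted p = 1.46e-13). CCND1 (chromosome 11, 69641156 to 69654474) held 331, 302 and 240 CPM in LK2-ctrl and 336, 383 and 324 CPM in LC-AI-ctrl libraries, and the groups overlapped (log2 difference -0.26, SE 0.09, edgeR adjusted p = 0.0232). CCND3 was at 42.9 to 62.0 and 46.5 to 50.3 CPM, overlapping as well (log2 difference 0.15, SE 0.10, edgeR adjusted p = 0.195). CDK6, whose product shares the cyclin D partner role with CDK4, was higher in LK2-ctrl cells, at 195, 181 and 153 CPM against 90.3, 85.3 and 85.7 CPM (log2 difference 1.02, SE 0.08, edgeR adjusted p = 8.11e-10). CDK4 was lower there, at 201, 196 and 156 CPM against 225, 241 and 226 CPM (log2 difference -0.33, SE 0.08, edgeR adjusted p = 0.00210). In RPKM, CDK4 exceeded CDK6 6.53-fold in LK2-ctrl and 16.6-fold in LC-AI-ctrl cells.

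The small differences between the ctrl cells depended on the scaling. With TMM the median of all genes was 0.119 on the log2 scale, and scaling by library size only raised it by 0.222. Relative to the median of all genes, CCND1 stood at -0.38 under both scalings, CDK4 at -0.45, CCND3 at 0.03 and CDKN1B at -0.12. By the fitted value itself, CCND1 and CDK4 no longer passed with library size only (adjusted p = 0.6995 and 0.166), while CCND3 passed as higher in LK2-ctrl (0.37), and CDKN1B turned from -0.00153 to 0.22 (adjusted p = 0.00483). Without LK2-ctrl replicate 3, CCND1 did not pass (adjusted p = 0.0894) and CCND3 did (0.26, adjusted p = 0.00524), and without LC-AI-ctrl replicate 2, CCND1 did not pass (adjusted p = 0.133). RB1, CCND2, CDK4, CDK6, CDKN1C, CDKN2A and CDKN2B passed with each of the 12 libraries left out in turn.

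**Figure D2:**
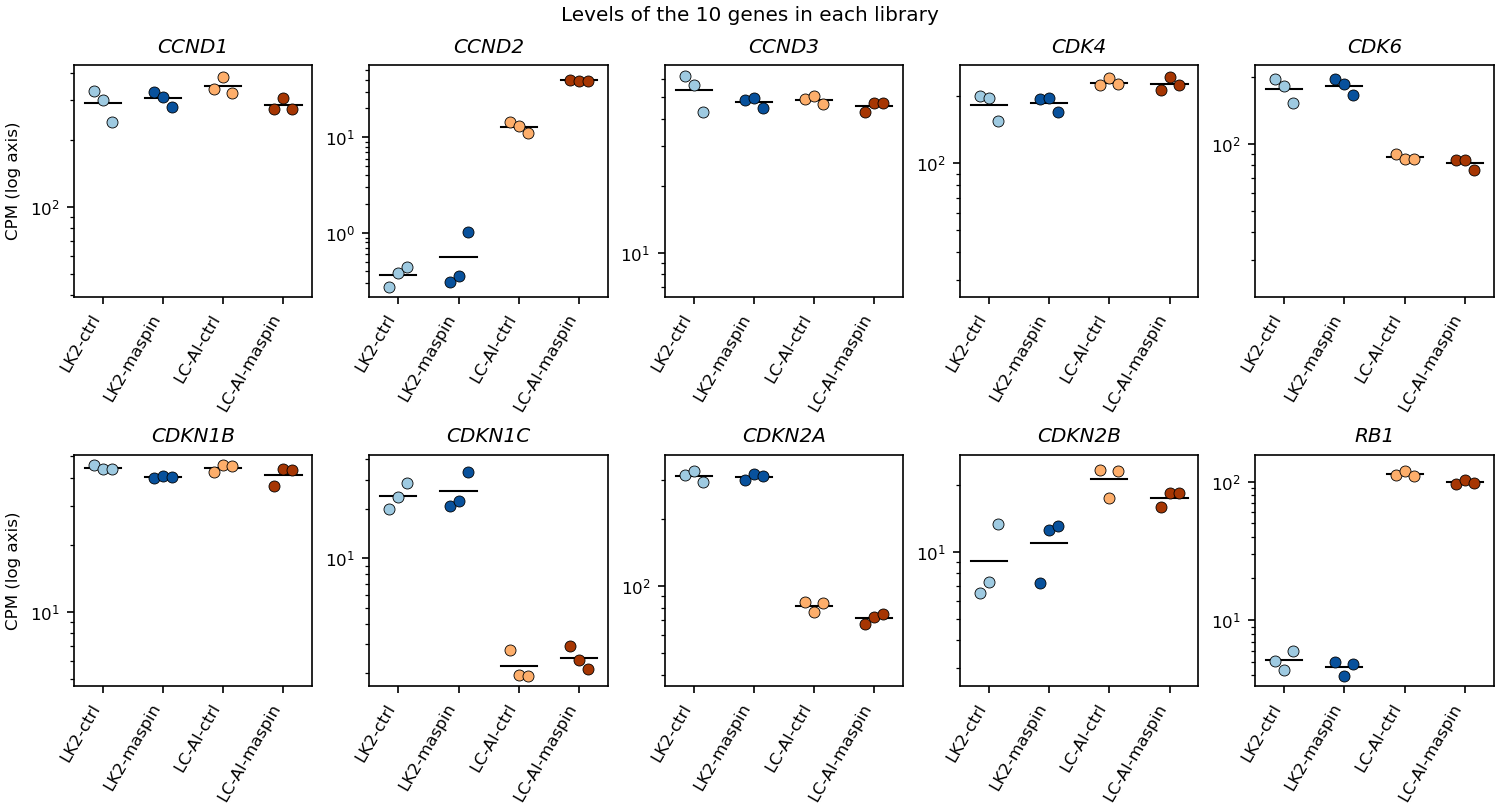
Level of each of the 10 genes in every library, in CPM on a log axis whose range differs between panels but spans at least a factor of 10; points are libraries (3 per group, replicates 1 to 3 from left to right) and lines are group means. The lines separate RB1, CDKN2A, CDKN2B, CDKN1C, CDK4, CDK6 and CCND2, with CDK4 and CDKN2B lying closest. The maspin and ctrl groups of RERF-LC-AI cells lie far apart only for CCND2 (38.8 to 40.0 against 11.04 to 14.37 CPM).

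The order of levels within a line differed accordingly. In LK2-ctrl cells CDKN2A was highest, at 301 to 335 RPKM (mean 319), followed by CDK4 (98.6 ± 13.2 RPKM, SD, n = 3), CCND1 (68.7 ± 10.9), CCND3 (26.6 ± 4.86) and CDKN1B (18.4 ± 0.414), none of which overlapped its neighbour. CDK6 (15.1 ± 1.83) and CDKN1C (13.5 ± 2.52) overlapped, and CDKN2B (2.35 ± 0.971), RB1 (1.08 ± 0.176) and CCND2 (0.0566 ± 0.0131) closed the order without overlap. In LC-AI-ctrl cells CDK4 was highest, at 124 ± 4.88 RPKM. CDKN2A (83.3 ± 4.79) and CCND1 (82.0 ± 7.41) overlapped, as did CCND3 (24.0 ± 0.945) and RB1 (23.9 ± 1.18). CDKN1B (18.4 ± 0.741), CDK6 (7.47 ± 0.239), CDKN2B (5.54 ± 0.857) and CCND2 (1.97 ± 0.258) followed without overlap. RPKM of CDKN2A rests on the length of 1 of its transcripts, although 9 were counted together.

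Maspin was then compared with ctrl cells within each line. The list of members was drawn up with the results of this contrast known, so that these values are a description. Whether a member was past the threshold set over all genes is part of that description and supports nothing. In RERF-LC-AI cells CCND2 was 3.06-fold higher with maspin and CCND1, CDKN2A, CDKN2B and RB1 were lower by 1.14- to 1.22-fold, and in LK-2 cells no member was past the threshold. Over all genes, 4.01% were higher and 6.53% lower in RERF-LC-AI and 0.533% passed in either direction in LK-2 cells. Nothing is read from the members' counts against these shares, since the rule used the same contrast. The spread between libraries was wider in LK-2 (biological coefficient of variation 11.7%) than in RERF-LC-AI cells (6.43%).

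CCND2 held 14.37, 13.03 and 11.04 CPM in LC-AI-ctrl and 40.0, 38.8 and 38.8 CPM in LC-AI-maspin libraries. All 3 maspin libraries lay above all 3 ctrl libraries, with a log2 fold change of 1.61 (SE 0.08) that ran from 1.52 to 1.70 when each library was left out in turn. In LK-2 cells the reads counted were 14, 22 and 22 in ctrl and 18, 15 and 52 in maspin libraries. LK2-maspin replicate 3 alone, at 1.03 CPM, lay above the rest, which ran from 0.277 to 0.445 CPM. The log2 fold change was 0.62 (SE 0.49), and -0.15 without that library. CCND2-AS1, an antisense transcript beside CCND2, had 2, 6 and 5 reads in LC-AI-ctrl and 14, 19 and 16 reads in LC-AI-maspin libraries (log2 fold change 1.68, SE 0.57, edgeR adjusted p = 0.0568). These were few reads, and without a stated strand setting they cannot be told apart from reads of CCND2.

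CCND1, the most abundant D-type cyclin in all 4 groups, held 336, 383 and 324 CPM in LC-AI-ctrl and 275, 307 and 275 CPM in LC-AI-maspin libraries. The groups did not overlap, and the log2 fold change was -0.28 (SE 0.06). In LK-2 cells CCND1 held 331, 302 and 240 CPM without and 328, 310 and 281 CPM with maspin, overlapping, with a log2 fold change of 0.08 (SE 0.10) that turned to -0.03 without LK2-ctrl replicate 3. CCND3 overlapped between ctrl and maspin libraries in both lines, with log2 fold changes of -0.17 (SE 0.11) in LK-2 cells, or -0.30 without LK2-ctrl replicate 3, and -0.09 (SE 0.06) in RERF-LC-AI cells.

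The make-up of the D-type cyclin transcripts followed from these values. CCND2 was 1.83% ± 0.229 of the summed RPKM of the 3 cyclins in LC-AI-ctrl and 6.31% ± 0.401 in LC-AI-maspin cells (SD, n = 3), against 0.0621% and 0.0944% in LK2-ctrl and LK2-maspin cells. CCND1 made up 75.9% in LC-AI-ctrl and 70.3% in LC-AI-maspin cells, and CCND3 22.2% and 23.4%. In LK-2 cells the CCND1 share moved the other way, from 72.1% in LK2-ctrl to 75.4% in LK2-maspin cells. The CCND3 share there was 27.8% and 24.5%. The sum of the 3 cyclins was 108 RPKM in LC-AI-ctrl (101.0 to 117.3) and 95.9 RPKM in LC-AI-maspin cells (92.13 to 101.5), with overlap. CCND2 remained a minor part of the cyclin D transcripts in every group.

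**Figure D3:**
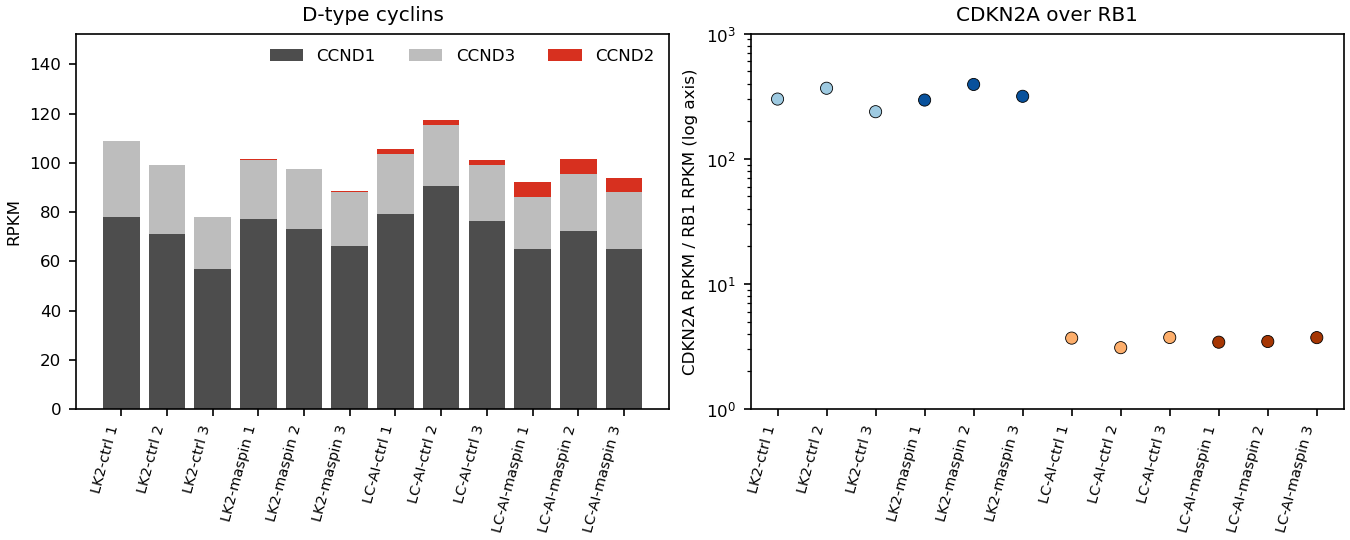
Left, RPKM of the 3 D-type cyclins stacked for each of the 12 libraries; right, RPKM of CDKN2A over that of RB1 in each library, on a log axis. The CCND2 segment is visible in RERF-LC-AI libraries and larger with maspin (6.31% against 1.83% of the sum), and the CDKN2A to RB1 ratio is about 302 to 335 in the group means of LK-2 and 3.50 to 3.53 in those of RERF-LC-AI cells.

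The kinases differed little between maspin and ctrl cells. CDK4 had log2 fold changes of 0.03 (SE 0.09) in LK-2 and -0.01 (SE 0.05) in RERF-LC-AI cells, the latter turning to 0.02 with library size only and the former to -0.06 without LK2-ctrl replicate 3. CDK6 was at 90.3, 85.3 and 85.7 CPM in LC-AI-ctrl and 84.5, 84.5 and 76.0 CPM in LC-AI-maspin libraries. These did not overlap, by a narrow margin, and the log2 fold change was -0.09 (SE 0.05). In LK-2 cells CDK6 overlapped (0.05, SE 0.08, or -0.03 without LK2-ctrl replicate 3).

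Of the inhibitors, CDKN2A held 84.8, 76.1 and 83.5 CPM in LC-AI-ctrl and 67.5, 72.4 and 74.9 CPM in LC-AI-maspin libraries, without overlap (log2 fold change -0.18, SE 0.05). CDKN2B held 23.3, 17.5 and 23.1 CPM against 15.9, 18.4 and 18.3 CPM, and here the groups overlapped, since LC-AI-ctrl replicate 2 lay below 2 maspin libraries (log2 fold change -0.28, SE 0.09). Neither was past the threshold with library size only, nor CDKN2A in 4 and CDKN2B in 5 of the 6 fits that left out 1 library. In LK-2 cells CDKN2A was at 314, 327 and 294 CPM without and 300, 319 and 311 CPM with maspin (-0.01, SE 0.06). CDKN2B differed by 0.27 (SE 0.27) in LK-2 cells and by 0.68 without LK2-ctrl replicate 3, its highest library there.

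CDKN1B, the gene of p27, did not overlap between the LK-2 groups, but was not past the threshold (edgeR adjusted p = 0.783). The share of all genes without overlap was not counted in any comparison. Nothing is therefore read from this, nor from the other genes described here as without overlap. CDKN1B held 45.5, 43.8 and 43.7 CPM in LK2-ctrl and 39.9, 40.6 and 40.4 CPM in LK2-maspin libraries, with a log2 fold change of -0.14 (SE 0.06). In RERF-LC-AI cells the groups overlapped and the value was -0.10 (SE 0.06), or -0.02 without LC-AI-maspin replicate 1. CDKN1C overlapped in both lines, with log2 fold changes of 0.09 (SE 0.18) in LK-2 and 0.16 (SE 0.18) in RERF-LC-AI cells. The LK-2 value turned to -0.16 without LK2-maspin replicate 3 and was 0.26 without LK2-ctrl replicate 3, and the RERF-LC-AI value ran from 0.036 to 0.35 when each library was left out in turn.

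RB1 was at 112, 120 and 109 CPM in LC-AI-ctrl and at 96.3, 102 and 98.3 CPM in LC-AI-maspin libraries. All 3 maspin libraries lay below the ctrl libraries, with a log2 fold change of -0.20 (SE 0.05). In LK-2 cells the values of 5.10, 4.35 and 6.03 CPM without and 4.96, 3.96 and 4.80 CPM with maspin overlapped (-0.17, SE 0.16, or -0.02 without LK2-ctrl replicate 3). In 1 fit of all 12 libraries, where the wider spread of LK-2 cells was shared, CCND1, CDKN2A, CDKN2B and RB1 of RERF-LC-AI cells were no longer past the threshold.

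**Figure D4:**
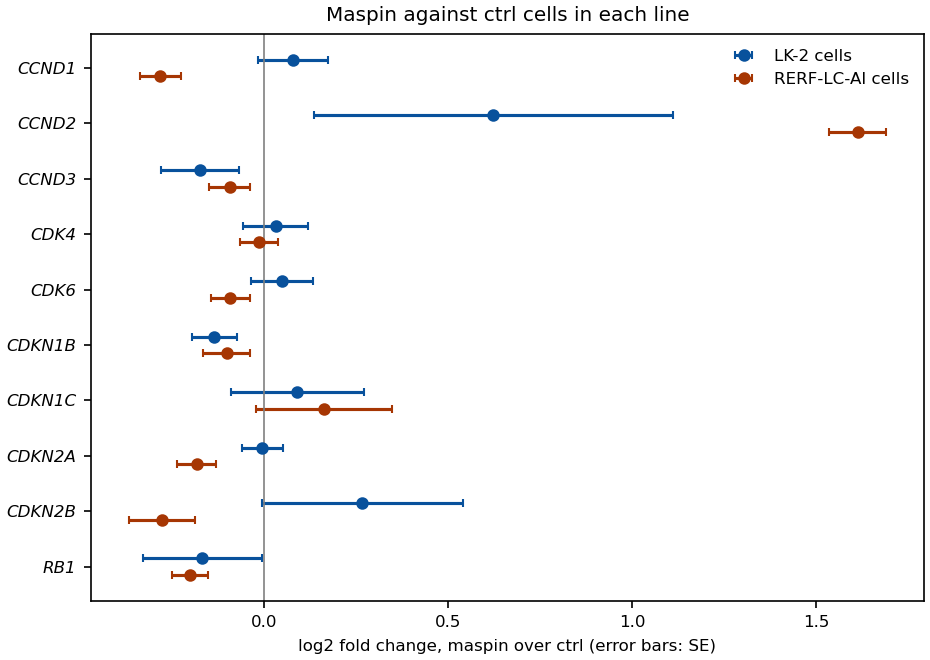
Log2 fold change, maspin over ctrl (x axis), for each gene in both lines, with SE bars from the fit within each line (3 against 3 libraries). CCND2 in RERF-LC-AI cells, at 1.61, stands away from the other values, which run from -0.28 to 0.62.

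The difference of the maspin effect between the lines was taken from 1 fit of all 12 libraries. It is computed from the contrasts that chose the members and is a description too. The maspin cells also differed in SERPINB5, at 46.4 CPM in LK2-maspin and 512 CPM in LC-AI-maspin cells. The study reported maspin protein in nucleus and cytoplasm of LK2-maspin cells, but mainly in the cytoplasm of LC-AI-maspin cells. Line, maspin level, its location, medium, pool and deposited table cannot be told apart in this difference. By edgeR's quasi-likelihood test 1.76% of all genes and none of the 10 members were past the threshold, and 2 members (CCND1 and CCND2) were under an unadjusted p of 0.05, from which nothing is read. DESeq2 and edgeR's likelihood ratio test gave 0 members as well. The effect was larger in RERF-LC-AI cells by 0.99 (SE 0.41) for CCND2 and lower there by 0.36 (SE 0.13) for CCND1 on the log2 scale. The CCND2 difference was 1.74 (SE 0.32) without LK2-maspin replicate 3, the LK-2 library with the most CCND2 reads, and that of CDKN2B moved from -0.55 to -0.97 without LK2-ctrl replicate 3. In LK-2 cells, likewise, no member was past the threshold by these 3 tests and 1 (CDKN1B) was under an unadjusted p of 0.05.

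Genes whose levels followed CCND2 most closely over the 12 libraries, after the mean of each line was subtracted, were MAP3K6 (Pearson r = 0.963), BCL11A (0.952), MOK (0.935), TTC39B (0.935) and CRBN (0.931), out of 16742 genes compared. CCND2 itself varied through the step between ctrl and maspin groups of RERF-LC-AI cells and through LK2-maspin replicate 3, with only 52 reads. The weight of each in the correlation was not tested, and the correlation is given as a description. In RERF-LC-AI cells the log2 fold changes of the named genes were smaller than that of CCND2, from 0.19 for MAP3K6 to 0.43 for MOK.

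Around the members, 62 other genes of the G1 to S step and its loci were listed in 6 groups. In LK-2 cells none of the 60 tested passed by edgeR's quasi-likelihood test, and 1 (CUL1) was under an unadjusted p of 0.05. In RERF-LC-AI cells 6 were higher, 9 lower and 45 did not pass, with a median log2 fold change of -0.0201 against 0.0137 over all genes. Over all genes tested, 0.533% passed in LK-2 cells, and 4.01% were higher and 6.53% lower in RERF-LC-AI cells. These shares belong beside the counts of each group below. Nothing is read from those counts, since the lists were drawn up with earlier results of these data known. Between the lines, none of 62 passed for a difference of the maspin effect, with 7 under an unadjusted p of 0.05.

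Of the other CDK inhibitors, 2 of 4 were lower in LC-AI-maspin than in LC-AI-ctrl cells. CDKN2C, the gene of the INK4 protein p18, held 71.4, 86.0 and 84.3 CPM in ctrl and 50.3, 65.7 and 66.8 CPM in maspin libraries, without overlap (log2 fold change -0.40, SE 0.08, edgeR adjusted p = 4.29e-04). CDKN3, a phosphatase that acts on CDK2, fell from 61.6 ± 3.43 to 51.6 ± 2.09 CPM (SD, n = 3 libraries a group, edgeR adjusted p = 0.00189). CDKN2D, the gene of p19, had a log2 fold change of -0.37 that did not pass (adjusted p = 0.0809). CDKN1A, the gene of p21, had a log2 fold change of 0.72 in LK-2 cells (SE 0.35, adjusted p = 0.827), with libraries from 4.52 to 11.7 CPM in LK2-ctrl and from 6.92 to 18.2 CPM in LK2-maspin cells. Between the ctrl cells all 4 were lower in LK2-ctrl, as were 30.5% of all genes tested. CDKN2C differed most, at 0.928 against 80.6 CPM (log2 difference -6.46, SE 0.16, adjusted p = 3.29e-18).

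Among 12 pocket proteins and E2F factors, 2 rose with maspin in RERF-LC-AI cells. These were TFDP2, which pairs with E2F factors (0.20, adjusted p = 0.00624), and E2F3 (0.17, adjusted p = 0.0425). The other 10, among them the RB1 relatives RBL1 and RBL2, did not pass. Between the ctrl cells 10 of the 12 were lower and 2 higher in LK2-ctrl, beside 30.5% and 31.4% of all genes tested. E2F4 was lower by a log2 difference of -1.88 (adjusted p = 1.72e-14) and RBL2 by -1.51 (adjusted p = 1.77e-14), and E2F2 was higher (1.39, adjusted p = 6.88e-10). Of 7 genes of the cyclin E and CDK2 step, CDK2 (-0.15, adjusted p = 0.0463) and CCNE2 (-0.25, adjusted p = 0.0482) fell with maspin in RERF-LC-AI cells, whereas CCNE1 had 0.20 (adjusted p = 0.115).

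Of 20 E2F target genes, 2 rose, 3 fell and 15 did not pass in RERF-LC-AI cells, with a median log2 fold change of -0.01. MCM4 and MCM2 encode parts of the same replicative helicase and moved in opposite directions. MCM4 fell from 361 ± 33.6 to 287 ± 19.4 CPM (adjusted p = 1.42e-04) and MCM2 rose from 306 ± 17.7 to 367 ± 30.8 CPM (SD, n = 3 libraries a group, edgeR adjusted p = 0.00106). The mitotic cyclin CCNB1 fell (-0.16, adjusted p = 0.0299). Of 11 genes for the assembly and turnover of D-type cyclins and p27, 2 rose and 2 fell. SKP2, the receptor of the ubiquitin ligase for p27, fell (-0.19, adjusted p = 0.0165), and AMBRA1, the ligase receptor for D-type cyclins, rose (0.22, adjusted p = 0.0192), as did GSK3B (0.17, adjusted p = 0.0231). None of the 6 tested antisense, overlapping or neighbouring genes passed in either line. Markers moved in the same maspin libraries. KRT8, KRT18 and KRT19 fell among 5 epithelial markers, whose summed CPM was 1540 to 1660 against 2100 to 2230 in LC-AI-ctrl libraries. The sum was nearly all keratin. EPCAM and CDH1 did not pass and had means of 5.41 and 2.96 CPM in LC-AI-ctrl against 535 and 115 CPM in LK2-ctrl cells. Of 8 mesenchymal markers PDGFRB (-1.59) and COL1A2 (-0.96) fell, with the sum at 1670 to 1810 against 1770 to 1940 CPM, and of 8 neuroendocrine markers NCAM1 rose (0.49), with the sum at 9.06 to 9.70 against 7.09 to 9.15 CPM. No squamous, adenocarcinoma or immune marker passed in RERF-LC-AI cells. In LK-2 cells the squamous marker KRT5 rose from 0.726 ± 0.192 to 6.91 ± 1.61 CPM with maspin (log2 fold change 3.25, edgeR adjusted p = 4.65e-05). No other listed marker passed there. The part of these markers in the values above was not tested.

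**Figure D5:**
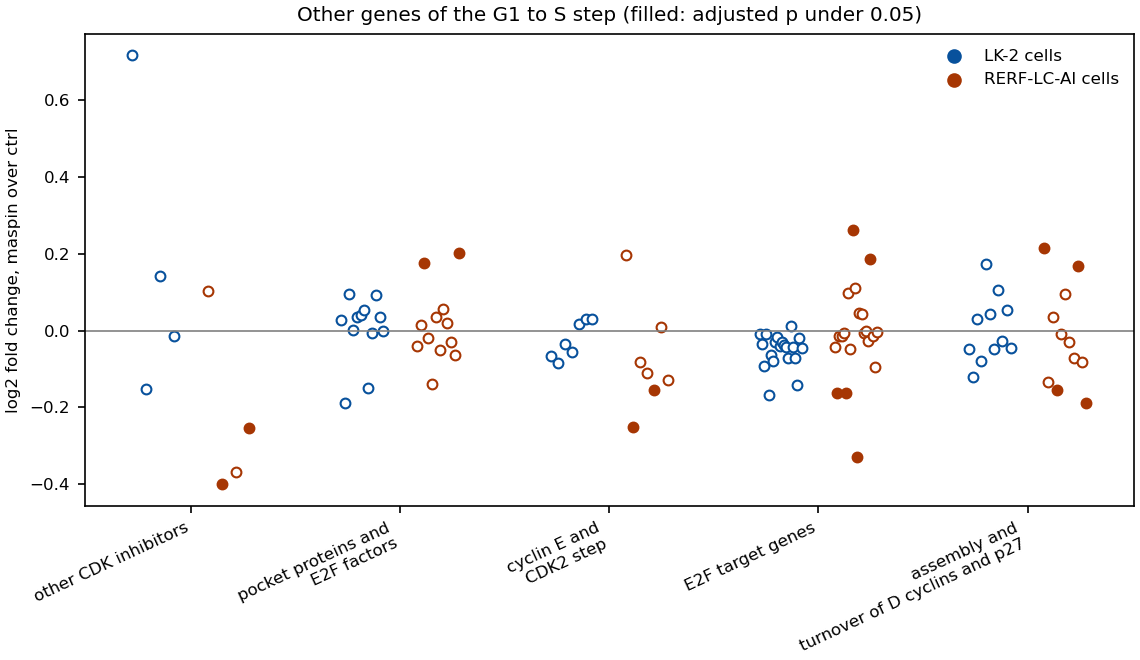
Log2 fold change, maspin over ctrl (y axis), for 54 tested genes in 5 lists and both lines; each point is 1 gene, offset sideways for legibility, and filled points passed an adjusted p of 0.05. All points of LK-2 cells are open, and those of RERF-LC-AI cells lie on both sides of 0 in each list.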

How the data were processed

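Strand-specific mRNA libraries of 12 samples (3 in each of 4 groups) were sequenced on the Illumina platform. Per the submitters' processing notes, Trimmomatic 0.39, BWA 0.7.17 and the build GRCh38.p13 served both lines, with SAMtools 1.12 in LK-2 but 1.10 in RERF-LC-AI data. Mapped reads per gene are deposited as counts, in 1 table for each line, and the authors' signal columns (counts scaled by total or, with edgeR 3.16.5, by TMM) were not used. No source used here names the counting tool. Lines without a symbol (at most 0.416% of the counts of an LK-2 library and 0.298% of those of an RERF-LC-AI library) were left out.

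Counts over all named genes were tested with edgeR 4.0.16 (R 4.3.3, quasi-likelihood F test), using TMM factors and its default filter on low counts (at least 10 reads in enough libraries and 15 in all); p-values were adjusted after Benjamini and Hochberg over all genes tested, with a threshold of 0.05. The maspin contrasts were fitted within each line, and the difference between lines and that of the ctrl groups in 1 fit of all 12 libraries. The SE is the log2 fold change over the square root of F. Libraries of a group differed by more than counting noise (chi-square over degrees of freedom, 4.70 to 26.5), and none was counted as a duplicate. The steps were tested on simulated data. Levels, RPKM (MANE Select lengths and coordinates of GENCODE on GRCh38) and plots were made in Python 3.11.15 (pandas 2.3.3, matplotlib 3.10.9).

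The members, the lists and the tests were chosen with earlier results of these data known. All members were named, and of each list up to 3 genes per line with the smallest p, any antisense, overlapping or neighbouring gene, the 5 genes most like CCND2 and SERPINB5. CDKN1A, CDKN2D and the genes named for the ctrl comparison follow the same rule, except RBL1, RBL2 and E2F4, named after their values were seen. Alternatives were library size alone, RLE or upper-quartile factors, leaving the filter out, a minimum of 10 counts in every library, edgeR's likelihood ratio test, DESeq2 1.42.0, an adjusted p under 0.01, a replicate block, 1 fit of all 12 libraries, the 6 ctrl libraries only, and each library left out in turn.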

Additional observations from a re-analysis of the deposited data

How the results depend on the processing

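In RERF-LC-AI cells 5 members passed, and 3 did with library size only, 3 at an adjusted p under 0.01 and 1 in a fit of all 12 libraries; leaving out 1 library gave 3 to 5. No member passed in LK-2 cells under any alternative. For the difference between the lines, where 0 passed, leaving out 1 library gave 0 to 1 (CCND2 without LK2-maspin replicate 3, CDKN2B without LK2-ctrl replicate 3). Between the ctrl cells 8 passed, and 7 to 8 under the alternatives. The direction of CDKN1B between the ctrl cells turned from -0.00153 to 0.22 under upper-quartile scaling (adjusted p = 0.00637) and 0.22 with library size only (adjusted p = 0.00483), to 0.0473 with at least 10 counts in every library, to 5.32e-05 with the replicate block and to 0.00366 with the 6 ctrl libraries only, and ran from -0.0596 to 0.0176 when each of the 12 libraries was left out. The other members kept their direction between the ctrl cells. The cause was not tested.

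The labels number the libraries alike in ctrl and maspin groups. Deviations of equally numbered libraries from their group means correlated across all genes tested with r = 0.154, 0.0144 and 0.164 in LK-2 and 0.0437, 0.0533 and 0.00167 in RERF-LC-AI cells. Each LK2-ctrl library correlated best with the LK2-maspin library of its own number. In RERF-LC-AI cells this held for numbers 1 and 2 but not for 3. Over all genes, 1190 passed in LK-2 cells with the replicate block and 140 without it. In RERF-LC-AI cells 4081 passed with the block and 2655 without it. What equally numbered libraries share was not tested. With the replicate block 0 members passed in LK-2, 5 in RERF-LC-AI cells and 8 between the ctrl cells, and for the difference between the lines 3 did (CCND1, CCND2 and CDKN2B). The members were chosen on the maspin contrasts, so these counts support nothing about stability.

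Depth limits CCND2 in LK-2 cells, where 14 to 52 reads were counted.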

Other observations

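Several members were at the ends of their range in the LK-2 libraries with replicate number 3. Ranked from the highest of the 6, LK2-ctrl replicate 3 was 6th for CCND1, CCND3, CDK4, CDK6 and CDKN2A and 1st or 2nd for CCND2, CDKN1C, CDKN2B and RB1. LK2-maspin replicate 3 was 5th for CCND1, CCND3, CDK4 and CDK6 and 1st or 2nd for CCND2, CDKN1C and CDKN2B, but 4th for CDKN2A and RB1. CDKN1B did not follow this, with the 3 ctrl libraries above the 3 maspin libraries. CDKN1A, which is no member, had its highest value of each LK-2 group in these libraries too, at 11.7 and 18.2 CPM. Their total counts, 44278486 and 46215576, were inside the range of the other LK-2 libraries.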
